A study of Mus musculus with 11 samples.

Results

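The genes described here are 10 milk protein genes of the mouse: the caseins Csn1s1, Csn1s2a, Csn1s2b, Csn2 and Csn3, the whey protein genes Lalba and Wap, Glycam1, and the milk fat globule genes Xdh and Btn1a1. They were chosen by name from knowledge of milk, and their probes were found through RefSeq accessions. All 10 were among the 29429 features tested. Wap and Csn1s2b had a pair of probes each, and the other genes had 1 probe.

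The RNA came from sorted luminal and basal cells of mouse mammary outgrowths. The outgrowths grew from primary mammary epithelial cells that had been infected with a lentivirus and were then injected in matrigel. The virus carried either a hairpin directed at Ror2 (shROR2) or one directed at luciferase as control (shLUC). Cells were separated by the surface proteins CD24 and CD29. The 4 groups were luminal shROR2 (2 arrays), luminal shLUC (3), basal shROR2 (3) and basal shLUC (3). All 4 groups share lentiviral infection and regrowth after injection, and the control group is an infected one. The labels give no genotype, strain, age, reproductive stage or host of the outgrowths, and do not say whether outgrowths were pooled. They call the samples biological triplicates, and another luminal shROR2 sample was not analysed here. The question of the study was what Ror2, a receptor of non-canonical Wnt signalling, does in each compartment.

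Milk proteins are made by secretory luminal cells. Caseins are the proteins that carry calcium phosphate in milk as micelles, and alpha-lactalbumin, encoded by Lalba, is the subunit that turns a galactosyltransferase into lactose synthase. Prolactin drives many of these genes through its receptor Prlr, the kinase Jak2 and the transcription factors Stat5a and Stat5b, with Elf5 as a further luminal regulator. Some milk protein transcripts are also present outside lactation.

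The arrays are one-colour, with a single labelled sample on each. On each array 52.8% to 59.5% of probes were well above background, and 0 spots were saturated. Arrays of a group correlated at 0.983 in luminal shROR2, 0.981 to 0.983 in luminal shLUC, 0.941 to 0.953 in basal shROR2 and 0.976 to 0.982 in basal shLUC. The median SD of a probe was 0.345 on the log2 scale in basal shROR2 against 0.188 in basal shLUC, so basal shROR2 was the most variable group. The Ror2 probe gave processed signals of 3.54 and 8.47 in luminal shROR2, against 3.14, 3.44 and 3.48 in luminal shLUC. It gave 16.8, 3.03 and 6.93 in basal shROR2, against 11.1, 12.1 and 10.1 in basal shLUC. Ror2 was well above background on a single array, labelled basal shROR2 replicate 1, so this probe does not bear out the label of that array, and near background it checks little for the others. The defining markers fit the sorted compartments. All 10 luminal markers tested were higher in luminal cells and 10 of 11 basal markers were lower there, in shROR2 and in shLUC outgrowths alike. In such sorted bulk samples, fewer cells of a type and less RNA per cell cannot be told apart.

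The caseins lie together on chromosome 5, in the order Csn1s1, Csn2, Csn1s2a, Csn1s2b and, after Prr27, Odam and BC037156, Csn3. Promoter sequence from RefSeq on build GRCm38.p6, the 250 bases before the transcription start, was at hand for 6 of the 10 genes, and for Csn1s2b, Csn3, Xdh and Btn1a1 it was not. Shown are Csn1s1 (chr5:87665958-87666207, plus strand), Csn2 (chr5:87699426-87699675, minus strand) and Lalba (chr15:98482684-98482933, minus strand). The first pair are caseins whose windows hold the element searched for, and Lalba is the gene called between the hairpins below. Capitals mark TTCNNNGAA, the letters of a STAT5-type element, which reads the same on both strands.

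Csn1s1: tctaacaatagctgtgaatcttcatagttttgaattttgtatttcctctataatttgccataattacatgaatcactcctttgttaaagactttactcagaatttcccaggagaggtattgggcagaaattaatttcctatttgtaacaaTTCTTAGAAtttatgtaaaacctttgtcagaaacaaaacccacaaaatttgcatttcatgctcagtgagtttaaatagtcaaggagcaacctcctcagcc

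Csn2: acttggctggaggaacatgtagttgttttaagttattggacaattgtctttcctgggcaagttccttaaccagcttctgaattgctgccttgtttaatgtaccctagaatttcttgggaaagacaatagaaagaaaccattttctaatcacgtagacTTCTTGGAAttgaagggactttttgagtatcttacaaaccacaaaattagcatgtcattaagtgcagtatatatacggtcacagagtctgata

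Lalba: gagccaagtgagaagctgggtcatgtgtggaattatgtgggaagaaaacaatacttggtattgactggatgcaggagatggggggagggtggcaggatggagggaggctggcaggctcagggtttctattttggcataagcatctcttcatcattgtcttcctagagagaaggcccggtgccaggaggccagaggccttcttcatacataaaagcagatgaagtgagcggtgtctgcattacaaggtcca

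The element begins 100 bases before the start in Csn1s1 and 93 bases before it in Csn2. It is also in the Glycam1 window, 145 bases before the start, and these letters are not in the windows of Lalba, Csn1s2a and Wap. Of 32851 promoter windows of this length, 7.02% hold it. A match of letters is a description of the sequence and says nothing about binding in these cells.

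Signals are given below as the processed signal, which is the background-subtracted spot brightness. It cannot be compared between probes of different genes. Changes are log2 differences of the processed signal scaled to the 75th percentile of each array, each with its standard error, and the adjusted p comes from limma, over all 29429 features. A change was called where that p was under 0.05.

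The caseins were carried by luminal cells. Csn1s1, an alpha-S1-casein gene, had 2800.2 and 2847 in luminal shROR2 cells, against 153, 138 and 122 in basal shROR2 cells. In shLUC outgrowths it had 3896, 4425 and 4004 in luminal cells, against 266, 149 and 135 in basal cells. The compartments did not overlap, and all 11 arrays lay well above background. The difference was 4.32 ± 0.28 in shROR2 outgrowths (19.9-fold, adjusted p = 9.8e-06) and 4.62 ± 0.25 in shLUC outgrowths (24.5-fold, adjusted p = 2e-06).

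Csn2 encodes beta-casein. It had 1201 and 1050.2 in luminal shROR2 cells, against 10.8, 32.3 and 21.6 in basal shROR2 cells, of which the first was not well above background. It had 1297, 1674.5 and 1341 in luminal shLUC cells, against 75.04, 51.4 and 43.0 in basal shLUC cells. The luminal arrays were all far above the basal ones, by 5.78 ± 0.41 in shROR2 outgrowths (55.1-fold, adjusted p = 1.8e-05) and by 4.76 ± 0.37 in shLUC outgrowths (27.2-fold, adjusted p = 2e-05).

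Csn1s2a, one of the alpha-S2-casein genes of the mouse, had 548 and 578 in luminal shROR2 cells, against 13.3, 26.0 and 6.01 in basal shROR2 cells. It had 539.8, 591 and 583 in luminal shLUC cells, against 36.1, 13.7 and 5.45 in basal shLUC cells. Only 1 basal shROR2 array and 2 basal shLUC arrays were well above background. The differences were 5.41 ± 0.75 in shROR2 outgrowths (adjusted p = 0.00096) and 5.42 ± 0.67 in shLUC outgrowths (adjusted p = 0.00039).

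The other alpha-S2-casein gene, Csn1s2b, was dim. It had 38.7 and 36.5 in luminal shROR2 cells and 33.7, 36.2 and 35.6 in luminal shLUC cells. Basal cells had 11.5, 8.65 and 10.8 in shROR2, none well above background, and 15.2, 15.3 and 5.89 in shLUC, 2 of them above it. The gene was at least 3.00-fold higher in luminal than in basal cells of shROR2 outgrowths (adjusted p = 0.0054), and 1.73 ± 0.31 higher on the log2 scale in shLUC outgrowths (adjusted p = 0.0034). An "at least" value takes, for each array of the dimmer group, the lowest signal that counted as well above background there, or the probe's own signal if that was higher. Its other probe was not well above background on any array.

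Csn3 encodes kappa-casein, the casein that coats the micelle. It had 44.2 and 43.6 in luminal shROR2 cells and 36.6, 44.6 and 31.0 in luminal shLUC cells. No basal array was well above background, with 2.96, 5.77 and 3.12 in shROR2 and 3.15, 2.56 and 4.12 in shLUC. Csn3 was at least 3.51-fold higher in luminal cells of shROR2 outgrowths (adjusted p = 0.0001) and at least 3.64-fold higher in those of shLUC outgrowths (adjusted p = 3e-05).

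Lalba and Wap were also luminal. Lalba had 2751 and 3031 in luminal shROR2 cells, against 153, 147 and 287.5 in basal shROR2 cells. It had 909.9, 967 and 896 in luminal shLUC cells, against 70.0, 70.9 and 84.5 in basal shLUC cells. Every array was well above background, and the compartments did not overlap within a hairpin. The luminal excess was 3.90 ± 0.28 in shROR2 outgrowths (14.9-fold, adjusted p = 2e-05) and 3.69 ± 0.25 in shLUC outgrowths (12.9-fold, adjusted p = 9.5e-06).

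Wap, the gene of whey acidic protein, a whey protein of rodent milk, was dim. It had 63.3 and 39.9 in luminal shROR2 cells, against 6.87, 5.12 and 19.8 in basal shROR2 cells, where only the last was well above background. It had 45.5, 43.2 and 29.0 in luminal shLUC cells, against 3.27, 7.33 and 3.06 in basal shLUC cells, none of them well above background. The luminal excess was 2.45 ± 0.57 in shROR2 outgrowths (adjusted p = 0.0143), and at least 3.79-fold in shLUC outgrowths (adjusted p = 0.0015). The shROR2 call was lost without luminal shROR2 replicate 1, which leaves 1 array in that group, and the difference was then 2.15. It was also lost by limma in a fit of the compared groups alone (2.45, adjusted p = 0.0964). The other Wap probe was well above background on 1 array only.

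Xdh, whose protein xanthine oxidoreductase is needed to wrap lipid droplets for secretion, differed less. It had 98.2 and 95.7 in luminal shROR2 cells, against 21.1, 74.1 and 43.2 in basal shROR2 cells. It had 79.9, 84.2 and 91.1 in luminal shLUC cells, against 38.3, 43.3 and 30.3 in basal shLUC cells. The luminal arrays were all above the basal ones. The difference was called in shLUC outgrowths (1.27 ± 0.37, adjusted p = 0.0329) and not in shROR2 outgrowths (1.20 ± 0.41, adjusted p = 0.0686). The shLUC call was lost without any 1 of the luminal shROR2 arrays, of the luminal shLUC arrays or of the basal shLUC arrays, with adjusted p up to 0.101. It was also lost with the slide as a block (1.13, adjusted p = 0.0519) and with no filter on dim probes (adjusted p = 0.0568). The shROR2 difference was called without basal shROR2 replicate 2 (1.62, adjusted p = 0.0063), with array weights (1.40, adjusted p = 0.0155) and with a trended robust prior (1.20, adjusted p = 0.042). It was smaller but called with the normexp background correction (0.54, adjusted p = 0.0482) and in the authors' deposited values (0.51, adjusted p = 0.0474).

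For Glycam1 and Btn1a1 no difference between the compartments was called. Glycam1 encodes a mucin-like glycoprotein that is made in milk-secreting epithelium and in lymph node high endothelial venules. It had 88.5 and 71.3 in luminal shROR2 cells and 23.6, 64.2 and 38.7 in luminal shLUC cells. Basal cells had 72.6, 31.0 and 101 in shROR2 and 18.5, 31.2 and 198 in shLUC. The 3 basal shLUC arrays thus spanned a 10.7-fold range, the widest of Glycam1 in any group. The luminal minus basal differences were 0.33 ± 0.95 in shROR2 outgrowths and -0.26 ± 0.85 in shLUC outgrowths, with 95% intervals of -1.82 to 2.47 and -2.18 to 1.66. Without basal shLUC replicate 3, which held the 198, the shLUC difference was 0.79 with adjusted p = 0.374. The 5 measured markers of high endothelial venules summed to 271 on that array, against 245 and 262 on the other basal shLUC arrays, and their part in the Glycam1 value was not tested.

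Btn1a1 encodes butyrophilin, a membrane protein of the milk fat globule. It had 156310 and 151480 in luminal shROR2 cells and 152720, 144700 and 152960 in luminal shLUC cells. Basal cells had 144220, 124290 and 142060 in shROR2 and 142540, 134050 and 131820 in shLUC. In processed signal the luminal arrays were all above the basal ones, but narrowly. After scaling, luminal shLUC replicate 2 (10.287) lay below basal shROR2 replicates 1 and 3 (10.305 each). All 11 arrays lay within 0.41 on the scaled log2 scale. The Btn1a1 probe ranked between 38 and 52 by brightness among the 55681 probes of each array. That rank describes the probe and cannot be read as an amount of transcript relative to other genes. Whether the probe also binds other transcripts was not tested. The luminal minus basal differences were 0.12 ± 0.13 in shROR2 outgrowths and 0.20 ± 0.12 in shLUC outgrowths, with adjusted p of 0.563 and 0.233.

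**Figure D1:**
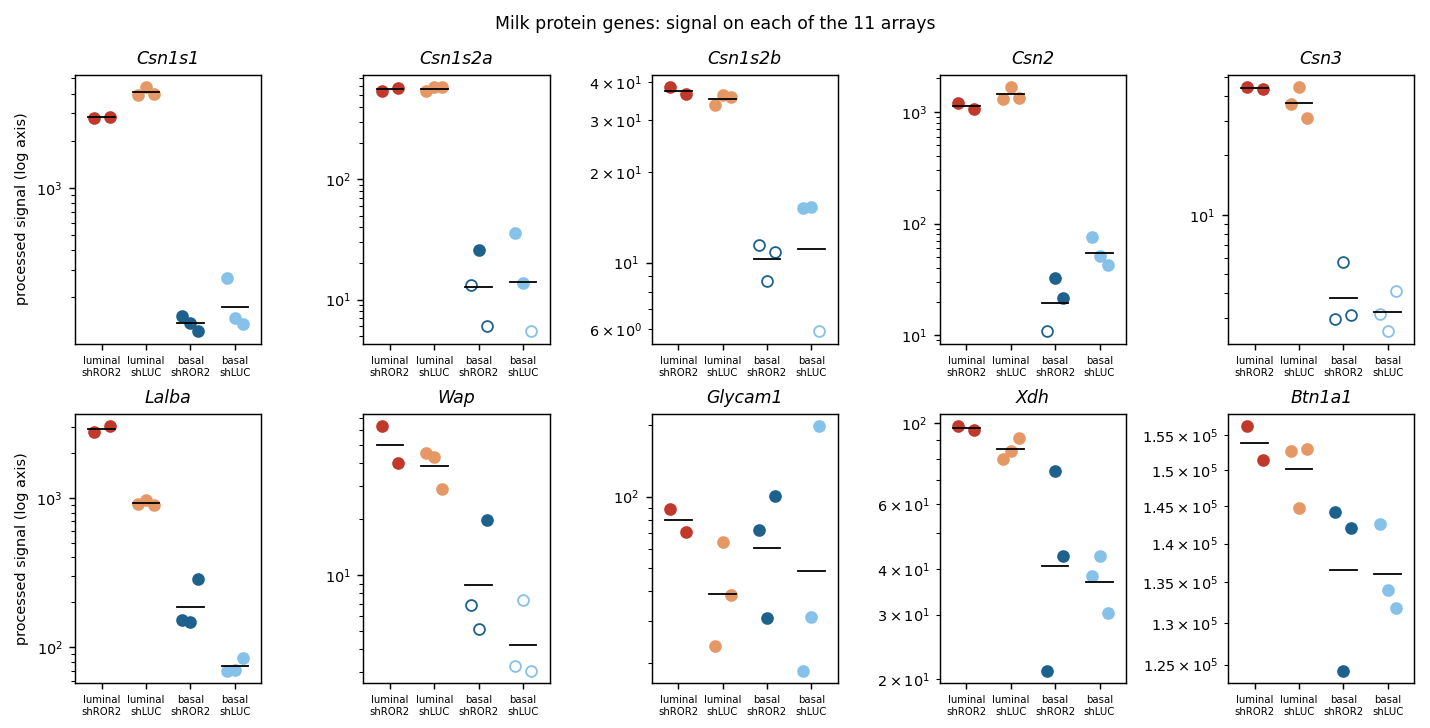
Processed signal (log axis, with its own range in each panel) of the 10 milk protein genes on each of the 11 arrays, by group. Filled points were well above background, open points were not, and the bar is the group's geometric mean. In the panels of the 5 caseins, Lalba and Wap every luminal array lies above every basal one, with the narrowest gap in Wap, where the lowest luminal array has 29.0 and the highest basal array 19.8. Xdh is separated less, and Glycam1 and Btn1a1 overlap or nearly so.

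Luminal cells were thus called higher for 7 of the 10 genes in shROR2 outgrowths and for 8 of the 10 in shLUC outgrowths. For none were they called lower. Csn3, Wap and Csn1s2b were well above background on 5, 6 and 7 arrays, of which 0, 1 and 2 were basal. These genes therefore met the filter of 3 arrays only through the luminal arrays, where they are high. Their calls, and their part in the medians below, are not independent of that filter. Over all features, 12.3% were called higher and 10.6% lower in shROR2 outgrowths. The corresponding shares in shLUC outgrowths were 13% and 13.8%. The median difference of the 10 genes was 2.97 in shROR2 and 3.42 in shLUC outgrowths, beside 0.08 and 0.06 over all features. The genes called in both hairpins were the 5 caseins, Lalba and Wap.

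The size of these differences depended on how background was treated. With the normexp correction, which adds an offset of 50, the shROR2 difference was 3.72 for Csn2, 3.01 for Csn1s2a, 3.71 for Csn1s1 and 3.52 for Lalba. The dim genes shrank most, to 0.43 for Csn1s2b, 0.69 for Csn3 and 0.63 for Wap, less than the bounds given above for Csn1s2b and Csn3. In the authors' deposited values the shROR2 differences were 3.57 for Csn2, 2.88 for Csn1s2a, 0.42 for Csn1s2b, 0.71 for Csn3 and 0.63 for Wap. In shLUC outgrowths normexp gave 3.65 for Csn2, 3.10 for Csn1s2a, 0.43 for Csn1s2b, 0.67 for Csn3 and 0.64 for Wap. Those of Csn3 and Wap were also less than their shLUC bounds, so all the bounds hold only for the reported background treatment. All 7 genes were called in both hairpins under both settings.

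**Figure D2:**
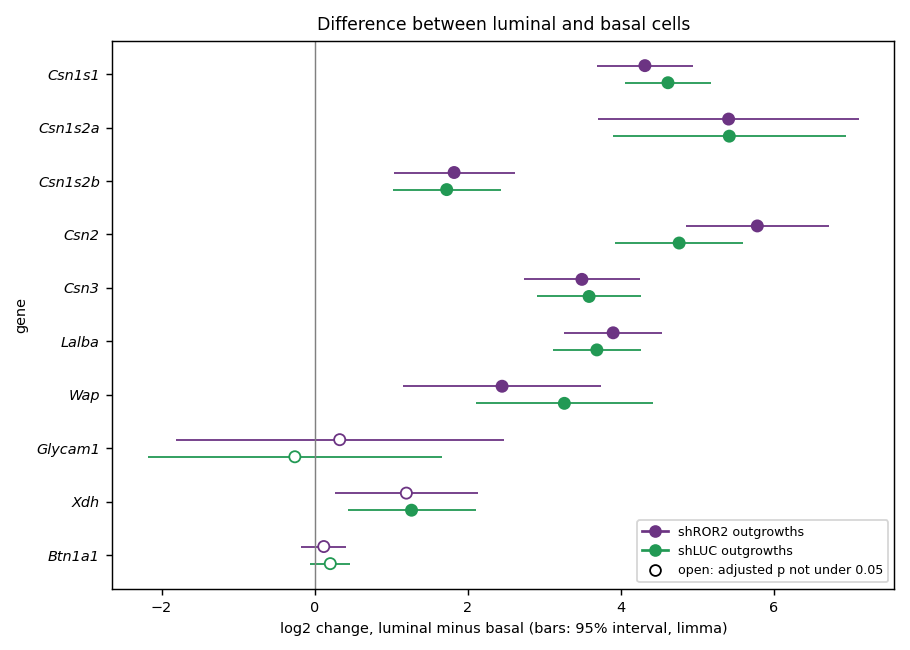
Log2 difference between luminal and basal cells for each gene, in shROR2 outgrowths (upper of each pair, purple) and shLUC outgrowths (lower, green), with 95% intervals from limma. Filled points passed adjusted p 0.05. Csn2 had the largest shROR2 difference, 5.78, and the intervals of Glycam1 and Btn1a1 include 0.

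The hairpins were compared next, within luminal cells and within basal cells. In luminal cells Lalba gave the largest difference of the 10 genes. In luminal cells it had 2751 and 3031 in shROR2, against 909.9, 967 and 896 in shLUC, so that both shROR2 arrays lay above all shLUC arrays. The scaled log2 signal averaged 4.61 ± 0.15 in luminal shROR2 (SD, n = 2) and 3.00 ± 0.07 in luminal shLUC (SD, n = 3). The difference was 1.61 ± 0.28, or 3.05-fold, with an adjusted p = 0.22 by limma, so it did not pass the threshold over all features. In basal cells it had 153, 147 and 287.5 in shROR2, against 70.0, 70.9 and 84.5 in shLUC, again with no overlap. The averages were 0.71 ± 0.56 in basal shROR2 and -0.69 ± 0.23 in basal shLUC (SD, n = 3 each). Lalba rose by 1.40 ± 0.25 in basal shROR2 cells, or 2.63-fold, with adjusted p = 0.0469. The luminal and basal effects differed by 0.21 ± 0.38, with a 95% interval of -0.65 to 1.08 and adjusted p = 0.921.

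Of the 10 genes, Lalba was the only one called in basal cells, where 0.948% of all features were called, 110 higher and 169 lower (105 and 90 with median scaling). In luminal cells 0 of the 10 genes were called by limma, beside 0.0034% of all features. Only Lalba had an unadjusted limma p under 0.05 there, as did 1633 of all 29429 features. In basal cells Lalba, Csn2 and Wap had such a p, as did 4644 of all 29429 features. The basal call of Lalba lay close to the threshold. It was lost without any 1 of the luminal shROR2, luminal shLUC or basal shLUC arrays, with adjusted p between 0.0833 and 0.16, and kept without any 1 basal shROR2 array. Without the array labelled basal shROR2 replicate 1, in which the Ror2 probe was brightest, it was 1.54 with adjusted p = 0.0329. The change itself stayed between 0.89 and 1.58 over 24 alternative settings, 9 of which called it. The luminal change stayed between 1.49 and 1.75, and 4 of 24 settings called it. Within each of the 2 slides the Lalba difference was 1.50 and 1.72 in luminal cells and 1.48 and 1.24 in basal cells.

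**Figure D3:**
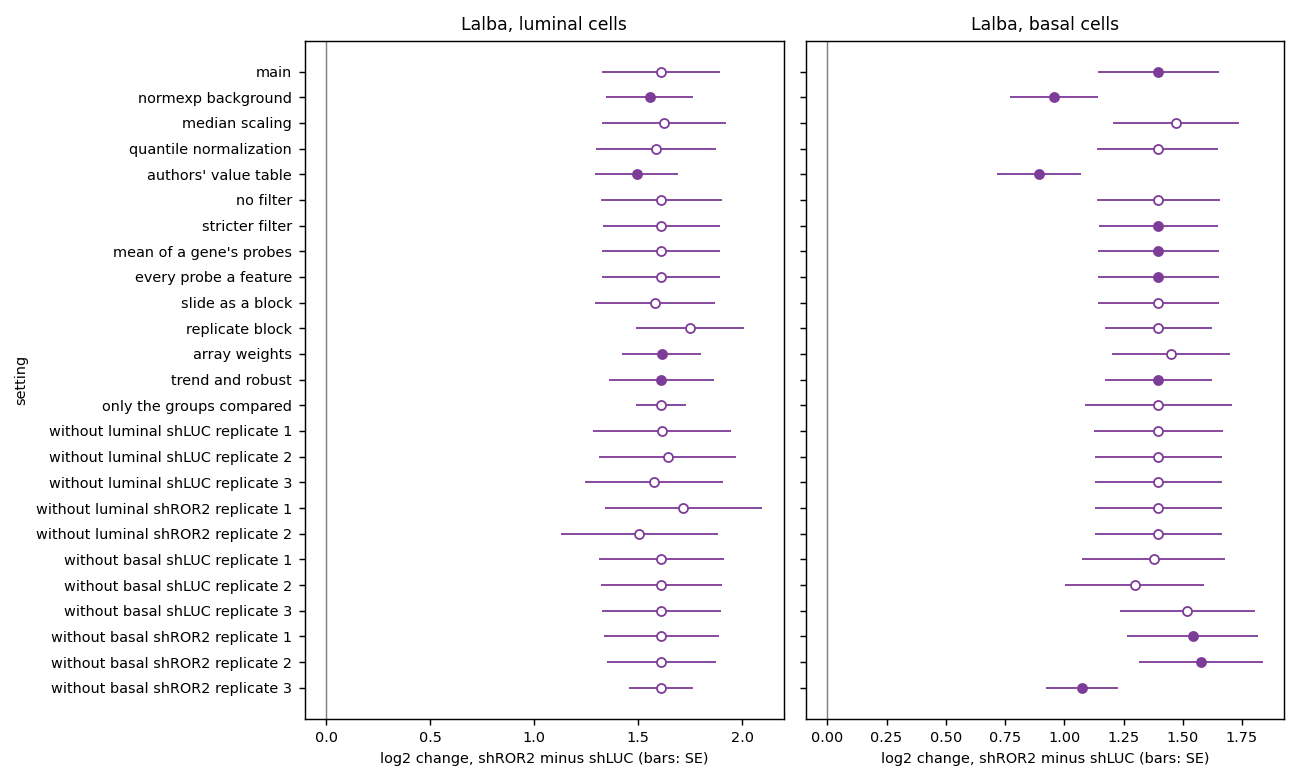
Log2 change of Lalba, shROR2 minus shLUC, in luminal cells (left) and basal cells (right) under the reported setting (main, top) and each alternative, with standard errors. Filled points passed adjusted p 0.05. The changes lie between 1.49 and 1.75 in luminal cells and between 0.89 and 1.58 in basal cells, and the filled points differ between the panels.

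The hairpin effect was also averaged over both compartments, a comparison added after the values had been seen. Lalba was 1.50 ± 0.19 higher in shROR2, or 2.84-fold, with adjusted p = 0.0188. It was the only one of the 10 genes called there, and 0.455% of all features were. Without 1 array the average stayed between 1.34 and 1.59. It remained called without basal shLUC replicate 3 or any 1 basal shROR2 array and lost its call without each of the other arrays, with adjusted p up to 0.107.

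Beta-casein went the other way in basal cells without passing the test. Csn2 had 10.8, 32.3 and 21.6 in basal shROR2 cells, against 75.04, 51.4 and 43.0 in basal shLUC cells, so every shROR2 array lay below every shLUC array. The difference was -1.40 ± 0.37, with adjusted p = 0.122. Its size depended on the processing, from -1.75 to -0.43 over 24 alternative settings. It was -1.86 on the slide with 2 arrays of each group and -0.48 on the slide with 1 of each. Without the array labelled basal shROR2 replicate 1, where Csn2 was not well above background, it was -0.97. In luminal cells Csn2 had 1201 and 1050.2 in shROR2, against 1297, 1674.5 and 1341 in shLUC, a difference of -0.38 ± 0.41 without overlap. The luminal and basal effects differed by 1.02 ± 0.55 (adjusted p = 0.675), and the average over both was -0.89 ± 0.28 (adjusted p = 0.245).

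Csn1s1 had a similar luminal pattern. Its luminal shROR2 arrays, 2800.2 and 2847, lay below the luminal shLUC arrays, 3896, 4425 and 4004, a difference of -0.57 ± 0.28 with adjusted p = 0.945. In basal cells the hairpins overlapped, at -0.27 ± 0.25. Without basal shLUC replicate 1, the array with 266, the basal difference was 0.06.

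None of the other caseins passed the test between the hairpins in either cell type. Csn1s2a differed by -0.05 ± 0.75 in luminal cells, with a 95% interval of -1.76 to 1.65, and by -0.05 ± 0.67 in basal cells. Csn1s2b differed by 0.06 ± 0.35 and -0.04 ± 0.31, and Csn3 by 0.21 ± 0.33 and 0.31 ± 0.30, luminal before basal. The basal values of Csn3 were not well above background in either group and give no fold.

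Wap differed by 0.35 ± 0.57 in luminal cells and by 1.17 ± 0.51 in basal cells, with adjusted p = 0.313. Only basal shROR2 replicate 3 was well above background there, and no basal shLUC array was. Without it the basal Wap difference was 0.58. Glycam1 differed by 1.00 ± 0.95 in luminal cells, where the shROR2 arrays lay above all shLUC arrays, and by 0.41 ± 0.85 in basal cells, where they overlapped. Its intervals ran from -1.15 to 3.14 and from -1.51 to 2.33, the widest of the 10 genes in both compartments. Xdh differed by 0.16 ± 0.41 and 0.22 ± 0.37, and Btn1a1 by 0.00 ± 0.13 and 0.09 ± 0.12. The Btn1a1 intervals, -0.29 to 0.29 in luminal and -0.17 to 0.35 in basal cells, were the narrowest of the 10 genes.

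**Figure D4:**
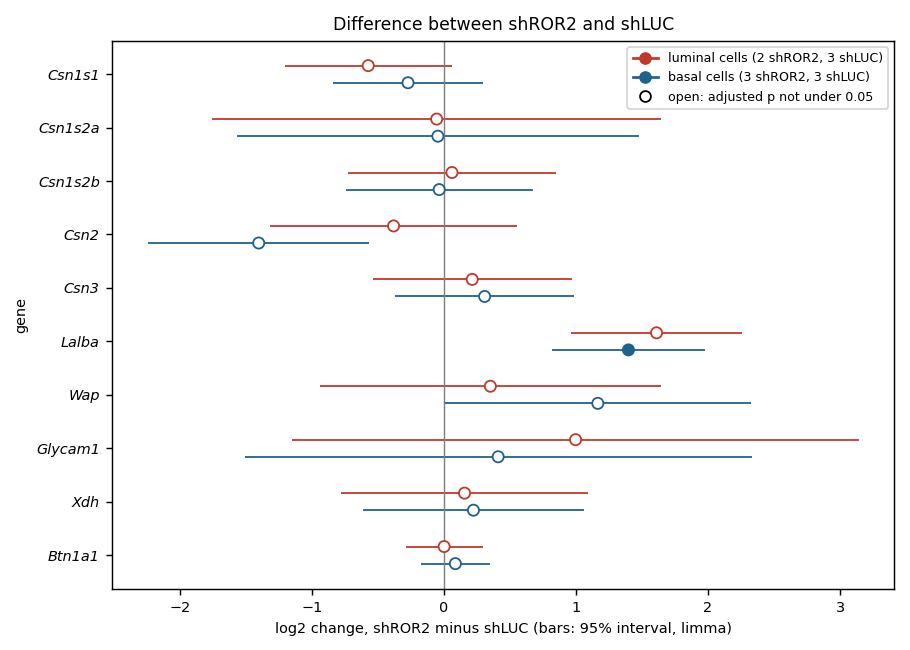
Log2 difference between shROR2 and shLUC for each gene, in luminal cells (upper of each pair, red) and basal cells (lower, blue), with 95% intervals from limma. Filled points passed adjusted p 0.05. Lalba lies to the right in both compartments at 1.61 and 1.40, and basal Csn2 lies to the left at -1.40.

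Across the 10 genes the hairpin differences had a median of 0.11 in luminal cells and 0.155 in basal cells, beside 0.00 and -0.05 over all features. In luminal cells 7 of the 10 differences were positive and 3 negative, and in basal cells 6 were positive and 4 negative. No difference between the luminal and basal effects was called for any of the 10 genes. None had an unadjusted limma p under 0.05 there, and 0% of all 29429 features were called, while 2444 had such a p. The luminal differences of the caseins lay between -0.57 and 0.21, and that of Lalba was 1.61.

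Marker lists of other cell types were summed in the same arrays. The 9 measured markers of hormone-sensing luminal cells summed to 18693 to 19874 in luminal shROR2, against 13467 to 14972 in luminal shLUC. In basal cells that sum was 1612 to 1837 in shROR2, against 1038 to 1266 in shLUC. Most of the luminal rise was in Cited1, with 10492 and 9995 in shROR2 against 6074, 6982 and 6832 in shLUC. Most of the basal rise was in Cited1 and Prlr. The median difference of the 9 markers was 0.298 in luminal and 0.263 in basal cells. The 10 luminal markers summed to 11212 to 14374 in basal shROR2 and 9816 to 11276 in basal shLUC, against 59044 to 66752 in luminal shROR2 and 55054 to 58576 in luminal shLUC. The 10 progenitor or alveolar markers overlapped between the hairpins, with 50383 to 56631 in luminal shROR2 against 48699 to 53508 in luminal shLUC, and 15764 to 17864 in basal shROR2 against 16000 to 17259 in basal shLUC. The 11 basal markers summed to 204910 to 217580 in basal shROR2, against 243020 to 249800 in basal shLUC, without overlap. In luminal cells their sum was 14274 to 15814 in shROR2, against 13687 to 14646 in shLUC. Snai2, a transcription factor of basal cells, differed by 1.41 ± 0.15 in luminal cells (adjusted p = 0.0519), with 16.9 and 19.0 in shROR2 against 5.63, 7.42 and 6.79 in shLUC, where no array was well above background. The smooth muscle actin gene Acta2 differed by 0.88 ± 0.14 there (adjusted p = 0.158). None of the genes in these 4 lists was called between the hairpins in either compartment.

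Some genes listed as markers of non-epithelial cells were called between the hairpins in basal cells. Of 8 leukocyte markers tested 3 rose in basal shROR2 cells, namely Cd74 (1.27 ± 0.13), H2-Ab1 (1.12 ± 0.13) and Lyz1 (1.16 ± 0.14). The rest of the list was not called. These 3 were also brighter in luminal than in basal shLUC cells, with Cd74 at 3018, 3274 and 3015 against 1457, 1858 and 1669. Whether their rise comes from leukocytes was not tested. Of 8 endothelial markers 2 rose, Plvap by 1.35 ± 0.24 and Emcn by 1.50 ± 0.28. Of 8 adipocyte markers 4 passed the filter and 1 rose, Fabp4 by 1.02 ± 0.14 (adjusted p = 0.0215), while Adipoq, Lep, Cfd and Pck1 did not pass it. Fabp4, which endothelium also expresses, had 4983, 6231 and 5025 in basal shROR2, against 2924, 2896 and 2644 in basal shLUC. The other tested adipocyte markers were not called, with Plin1 at 0.43 ± 0.38, Cidec at -0.04 ± 0.30 and Retn at 0.03 ± 0.51. The adipocyte sum, 5064 to 6289 in basal shROR2 against 2711 to 2986 in basal shLUC, was therefore nearly all Fabp4. The endothelial sum was 4678 to 5776 in basal shROR2 against 2876 to 3191 in basal shLUC. The leukocyte sum was 10267 to 11137 in basal shROR2 against 6955 to 8153 in basal shLUC. Such sums follow the brightest probes of a list.

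In luminal cells 0 markers of these lists were called, but the leukocyte, endothelial, adipocyte and fibroblast sums were higher in shROR2 without overlap. The 5 high endothelial venule markers summed lower, to 214 to 221 in luminal shROR2 against 247 to 268 in luminal shLUC. The luminal marker sum given above was also higher without overlap in luminal shROR2, but the median difference of its genes was 0.02. The 19 milk gene regulators summed to 23406 to 24060 in luminal shROR2, against 19950 to 22808 in luminal shLUC, with a median difference of 0.08. The median differences were larger for the leukocyte (0.58), endothelial (0.69) and adipocyte markers (0.40). The 7 fibroblast markers summed to 1378 to 1382 in luminal shROR2, against 756 to 784 in luminal shLUC, with a median difference of 0.793. Dcn, the decorin gene, differed by 0.89 ± 0.14 (adjusted p = 0.158). The leukocyte sum was 12626 to 13605 in luminal shROR2 against 9901 to 10169 in luminal shLUC. The endothelial sum was 1714 to 1792 in luminal shROR2 against 1366 to 1444 in luminal shLUC. The adipocyte sum was 1330 to 1491 in luminal shROR2 against 659.9 to 818 in luminal shLUC, again mostly Fabp4. In basal cells the fibroblast sums overlapped, with 5881 to 7720 in shROR2 against 6097 to 7015 in shLUC, and 0 of the 7 were called. The part of all these cells in the luminal and basal Lalba results was not tested.

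The regulators of milk genes were measured on the same arrays, as a list of 19 genes, all of which passed the filter. Prlr, the prolactin receptor, had 5418 and 4981 in luminal shROR2 cells, against 273, 552 and 477 in basal shROR2 cells. It had 4494, 4729 and 4079.7 in luminal shLUC cells, against 169, 160.3 and 208 in basal shLUC cells. Its luminal excess was 3.59 ± 0.28 in shROR2 outgrowths and 4.70 ± 0.25 in shLUC outgrowths. Within basal cells every shROR2 array lay above every shLUC array, by 1.31 ± 0.25 with adjusted p = 0.0584. In luminal cells Prlr differed by 0.20 ± 0.28 between the hairpins.

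Elf5 was higher in luminal cells by 5.12 ± 0.69 in shROR2 and 4.08 ± 0.62 in shLUC outgrowths, with only 1 basal array of each hairpin well above background. Stat5a was higher by 1.02 ± 0.19 and 0.66 ± 0.17, and Stat5b by 0.90 ± 0.18 and 1.41 ± 0.17, in shROR2 and in shLUC outgrowths. Jak2 did not pass the test, at -0.63 ± 0.20 and -0.22 ± 0.18. Cish and Socs2 are feedback inhibitors of this pathway. Socs2 was lower in luminal cells, at -1.44 ± 0.26 in shROR2 and -1.69 ± 0.23 in shLUC, while Cish was higher in shLUC (0.76 ± 0.15) and was not called in shROR2 (0.24 ± 0.17). Between the hairpins 0 of the 19 regulators were called in luminal or in basal cells. In basal cells Cish gave 0.76 ± 0.15 with adjusted p = 0.0595. Elf5 had 364 and 319 in luminal shROR2 cells, against 236, 205 and 230 in luminal shLUC cells. These arrays did not overlap, and the difference was 0.58 ± 0.69 (adjusted p = 1). In basal cells, where 4 of 6 arrays were not well above background, Elf5 gave -0.47 ± 0.62.

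Other genes of milk divided between the compartments. In shLUC outgrowths, 6 of the 13 whey and defence protein genes tested were higher and 5 lower in luminal cells, with a median of 0.02. Higher were Spp1 (osteopontin, 4.41 ± 0.27), Wfdc18 (3.14 ± 0.13), Ltf (lactoferrin, 2.95 ± 0.41), Folr1 (the folate receptor, 2.80 ± 0.23) and Trf (transferrin, 2.70 ± 0.11), and Slpi, a protease inhibitor, was lower (-3.71 ± 0.10). Of 9 further milk fat globule genes 5 were higher and 2 lower, with Muc15 at 3.41 ± 0.18, Plin2 at 2.08 ± 0.12 and Mfge8 at 1.37 ± 0.11. Of 8 lactose synthesis genes 2 were higher and 2 lower. B4galt1, the galactosyltransferase that Lalba binds, was higher in luminal cells by 1.16 ± 0.10 in shROR2 and by 0.98 ± 0.09 in shLUC outgrowths.

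B4galt1 had 2986 and 2959 in luminal shROR2 cells, against 2336, 2494 and 2532 in luminal shLUC cells, without overlap. Between the hairpins it differed by 0.24 ± 0.10 in luminal cells (adjusted p = 0.869) and 0.06 ± 0.09 in basal cells (adjusted p = 0.778). The 8 lactose synthesis genes, which do not include Lalba, summed to 12443 to 13797 in luminal shROR2, against 10493 to 11130 in luminal shLUC. In basal cells the sums were 11235 to 12207 in shROR2 against 12306 to 12998 in shLUC. These sums are not scaled, and basal shLUC replicate 2, at 12998, had the highest 75th percentile of the arrays, 131.4. The scaled signals had a median change of 0.07 over the list in basal cells. No order between the hairpins is therefore read from the basal sums. None of the whey and defence or lactose synthesis genes tested was called between the hairpins. Ltf was lower without overlap in luminal shROR2, with 2113 and 1849 against 3438, 3364 and 2957 in luminal shLUC. Folr1 was higher without overlap, with 366 and 390 against 246, 325 and 277. The 13 whey and defence genes had a median difference of 0.10 in luminal cells. Cd36, a fatty acid transporter of the fat globule that adipocytes and endothelium also express, was the 1 fat globule gene called, 2.14-fold higher in basal shROR2 cells (adjusted p = 0.0459). Of 9 other genes around the caseins on chromosome 5 only Smr2 passed the filter, and its luminal excess of 0.50 in shLUC outgrowths was not called.

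**Figure D5:**
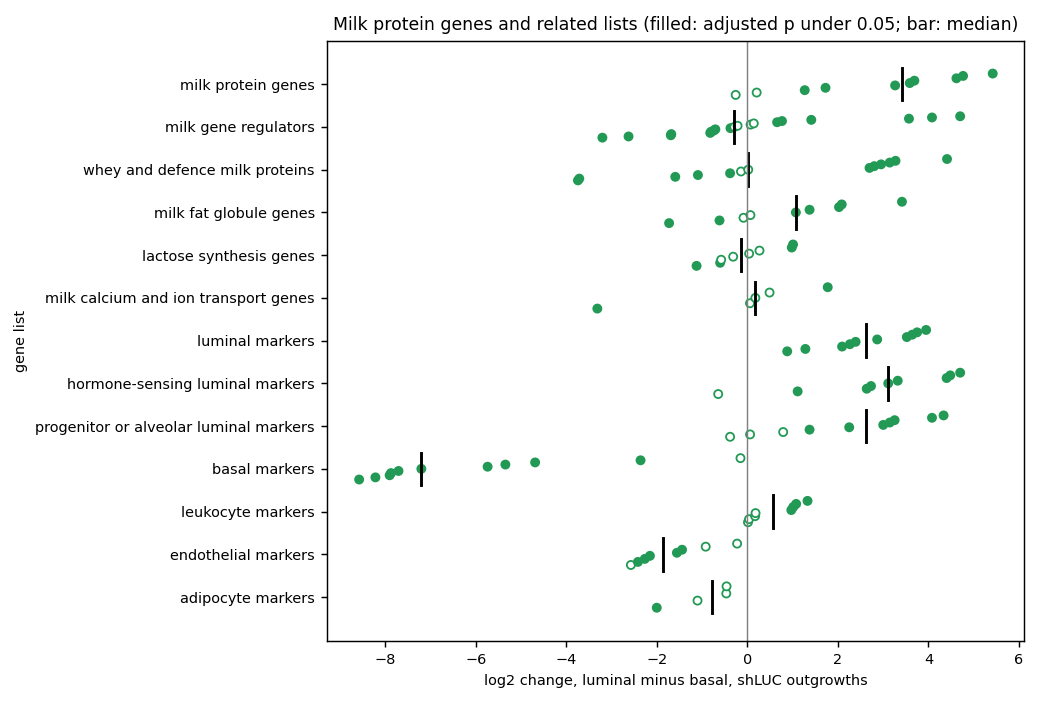
Log2 difference between luminal and basal cells in shLUC outgrowths for each tested gene (points) of the milk protein genes and of related lists, with the median as a bar. Filled points passed adjusted p 0.05. The milk protein genes had a median of 3.42, the luminal markers 2.63, the milk gene regulators -0.29 and the basal markers -7.20.

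The named genes closest to the mean casein profile were ranked by Pearson r over 14058 genes. Over the 11 arrays these were Hilpda (0.994), Gjb2 (0.993), Aqp5 (0.992), Shtn1 (0.991) and Krt8 (0.991). A ranking over the 6 basal arrays alone is not given, because Csn3 was well above background on 0 of them, Csn1s2b on 2 and Csn1s2a on 3. The arrays fall into separate luminal and basal clusters, so the first ranking mostly reads the gap between them, and each r is the best of many over few arrays.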

How the data were processed

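RNA of sorted cells from mouse mammary outgrowths was amplified with the NuGEN Ovation Pico WTA V2 kit and labelled with Cy3, per the labels' protocols. The deposited scanner files hold intensity values, which Agilent Feature Extraction 11.0.1.1 had background-subtracted and detrended per the file headers. A further deposited file, the authors' own processed values, gives intensity on a linear scale. Its column medians were 92.25 and 92.58 in luminal shROR2, 92.83, 92.29 and 92.08 in luminal shLUC, 92.54, 92.46 and 92.25 in basal shROR2 and 92.04, 92.75 and 92.79 in basal shLUC. On the log2 scale its columns had r of 0.9965 to 0.998 against the raw median signals, so it is not centred and holds no ratios. The normalization behind it is unknown, and one-colour values have no direction to settle.

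The values tested here were log2 processed signals, less the 75th percentile of their array. Control spots and outlier spots were dropped and spots of a probe averaged. Each array had 62976 spots, 55681 probes and a 75th percentile between 112.3 and 131.4. Probes were named through RefSeq accessions with a gene table of GRCm38.p6 (26582 named, 29099 not). Probes well above background on 3 or more of the 11 arrays were kept, 33628 in number, and 17 with missing values were left out. For each gene the brightest probe was kept, which gave 14068 genes and 15361 unnamed probes.

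All 11 arrays entered 1 fit with a mean per group, made by lmFit and eBayes of limma 3.58.1 (R 4.3.3, package data.table, version 1.17.8). The 2-sided p was adjusted over all features by Benjamini-Hochberg. Python 3.11.15 and matplotlib 3.10.9 drew the figures. The fit was tested on simulated data. With 2 or 3 arrays a group, the number of arrays limits the precision. The background alternative used the median spot signal with normexp (offset 50), because the files hold no mean signal. Other alternatives were median scaling, quantile normalization, the authors' table, other filters and probe rules, slide and replicate blocks, array weights, a trended robust prior, fits of the compared groups alone and leaving out each array.

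The members and gene lists were chosen with earlier results of these data known. Genes given with values, besides the members and Ror2, were drawn from a set made by rule. It held, from each list, up to 4 genes with the smallest p between compartments and up to 2 in each hairpin comparison. It also held 7 regulators whatever their p and the 5 genes most like the caseins over all arrays. Not every gene of that set is named here. Replicate numbers came from the labels. Of 15 pairs of same-numbered arrays 0 had deviations correlated above 0.1 (-0.09 to 0.10), so the numbers were not used to pair samples.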

Additional observations from a re-analysis of the deposited data

How the results depend on the processing

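Of 1190 single-gene values under the alternatives, 56 changed sign, 0 of them called ones, 27 lost a call and 9 gained one. The counts of the 10 genes called higher in luminal cells stayed at 6 to 8 in shROR2 and 7 to 8 in shLUC outgrowths. Between the hairpins in luminal cells, 1 of the 10 genes instead of 0 was called with normexp, the authors' table, array weights and a trended robust prior, each time Lalba. In basal cells 0 instead of 1 were called with median scaling, quantile normalization, no filter, the slide block, the replicate block, array weights and the compared groups alone, and 0 to 1 without each array. For the average effect it was 0 with the replicate block and 0 to 1 without each array. Features called in luminal cells were 1 in the reported fit, 22 with normexp, 5 with quantile normalization, 21 with the authors' table, 3 with no filter, 6 with the stricter filter, 62 with array weights, 29 with the robust prior, 0 with median scaling, the mean of probes, either block or the compared groups alone, and 0 to 10 without each array. In basal cells the 279 became 685 with normexp, 541 with the authors' table, 131 with no filter, 128 with the slide block, 37 with the replicate block, 44 with array weights, 674 with the robust prior, 0 with the compared groups alone and 21 to 878 without each array. The difference of the effects had 0 in the reported fit, 7 with normexp, 1 with median scaling, 2 with quantile normalization, 7 with the authors' table, 3 with the stricter filter, 23 with the robust prior and 0 to 8 without each array. The 6728 features called between the compartments of shROR2 outgrowths became 2822 with the compared groups alone and 3768 to 7540 without each array. The 134 called for the average became 54 with the slide block, 0 with the replicate block and 0 to 299 without each array. The replicate block pairs arrays by number only. With it Lalba gave 1.75 in luminal cells (adjusted p = 0.42), 1.40 in basal cells (adjusted p = 0.0849) and 1.57 on average (adjusted p = 0.0527). The exact test for genes that failed the filter was not run, since all 10 passed it. The causes of these shifts were not tested.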
